A study of Mus musculus with 18 samples.

Results

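The G1/S cyclins and CDK inhibitors examined here are 10 mouse genes, taken by symbol as Ensembl entries from a table of 32286 entries: the D-type cyclins Ccnd1, Ccnd2 and Ccnd3, the E-type cyclins Ccne1 and Ccne2, the A-type cyclins Ccna1 and Ccna2, and the CIP/KIP inhibitors Cdkn1a (p21), Cdkn1b (p27) and Cdkn1c (p57). All 10 were found and all 10 passed the filter on low counts, which left 17841 genes. Their mRNA was measured by sequencing in AT-3 and E0771, established mouse mammary carcinoma lines that carried the retroviral vector pRetroX with wild-type (WT) MRTFA, with MRTFA bearing the Y238A change that impairs binding to SRF, or empty. MRTFA partners the transcription factor SRF and is held in check by free actin, and the series asked how their binding bears on the stiffness of cancer cells. Each line and construct had 3 libraries, 18 in all, and every culture, empty vector included, received doxycycline at 2 µg/ml for 48 h to induce the construct.

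D-type cyclins are made in response to growth signals and switch on CDK4 and CDK6, which phosphorylate the retinoblastoma protein and release E2F factors. E2F activity raises E-type and A-type cyclins, which drive CDK2 at the start and during S phase. CIP/KIP proteins bind cyclin-CDK complexes, mostly restraining CDK2, and p21 is also a classic transcriptional target of p53. Ccna1 is known mainly from the male germ line, whereas Ccna2 is the A-type cyclin of dividing somatic cells.

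Levels are given as CPM, counts scaled to library size after TMM normalization, in the order of replicates 1, 2 and 3, and differences as log2 fold changes ± SE from edgeR's quasi-likelihood test. A gene is said to have risen or fallen where its Benjamini-Hochberg adjusted p over all 17841 genes was under 0.05. The source does not say whether the 3 replicate sets came from separate cultures, so the p-values measure the spread between these libraries, which may be technical. In such bulk samples, fewer cells of one cycle phase and less RNA per cell cannot be told apart. Library totals lay between 81265466 and 115260128 counts. The entry for the MRTFA construct ranged over 4386 to 7082 CPM with WT, 1958 to 2326 CPM with Y238A and at most 0.0248 CPM with empty vector in AT-3, and over 707 to 866 CPM, 280 to 354 CPM and at most 0.115 CPM in E0771, so WT and Y238A cells also differed in the amount of construct mRNA. Of 8 mammary epithelial markers, 4, 1 and 2 averaged at least 1 CPM in AT-3 with WT, Y238A and empty vector (summed levels 46.9 to 49.0, 66.5 to 78.8 and 7.70 to 8.33 CPM), and 3 did so in each E0771 group (576 to 688, 378 to 401 and 306 to 330 CPM). Cldn4 was at 0 in AT-3 with Y238A and with empty vector. The differences in these sums came mainly from Krt19 in AT-3 and Krt8 in E0771. Against empty vector, 3 of the 8 markers were higher and 0 lower with WT in each line, where 36.4% of all genes were higher in AT-3 and 11.2% in E0771. The AT-3 WT count is near that share. With Y238A 1 was higher and 1 lower in AT-3 (21.4% and 22.2% of all genes) and 1 higher and 0 lower in E0771 (5.41% and 6.64%). Of 7 fibroblast markers, 3, 2 and 2 averaged at least 1 CPM in AT-3 (summed levels 88.4 to 103 CPM with WT, 376 to 421 with Y238A and 499 to 542 with empty vector, mostly Pdgfrb and Pdgfra) and 2 in each E0771 group (52.6 to 64.0, 64.5 to 93.7 and 85.1 to 103 CPM). Lum was at 0 in all groups except AT-3 with empty vector and E0771 with Y238A. Of 7 leukocyte and macrophage markers, 2, 1 and 1 did so in AT-3 (24.7 to 25.3, 70.1 to 75.6 and 3.31 to 4.08 CPM, mostly Cd68) and 1 in each E0771 group (3.15 to 3.67, 11.6 to 17.7 and 3.33 to 4.98 CPM), with Cd3e at 0 in all groups except AT-3 with WT and E0771 with Y238A. Endothelial and adipocyte markers summed to at most 4.04 CPM and myogenic markers, mainly Des, to at most 5.47 CPM in any library. Of 4 fibroblast markers tested, 1 was higher and 2 lower with WT in each line (32.2% and 13.3% of all genes lower in AT-3 and E0771). With Y238A 0 were higher and 1 lower in AT-3 (22.2% of all genes lower), and 0 were called in E0771 (12.0% of all genes). Only 3 of the 7 leukocyte and macrophage markers passed the filter on low counts, which a gene can pass through any group where it is high. Of these, 3 were higher and 0 lower with WT in AT-3 (36.4% of all genes higher). This count is thus no result about the list. With WT in E0771 0 were called, where 24.5% of all genes were. With Y238A 1 was higher and 0 lower in each line (21.4% and 5.41% of all genes higher in AT-3 and E0771). Of 6 endothelial and adipocyte markers tested, 3 were higher and 0 lower with WT in AT-3, where 36.4% of all genes were higher. With WT in E0771 0 were called (24.5% of all genes). With Y238A 1 was higher and 0 lower in AT-3 (21.4% of all genes higher), and 0 were called in E0771 (12.0% of all genes). The part of these marker levels in the results below was not tested. Some libraries held low levels of transcripts typical of other groups, which may be traces from those libraries. They were taken as highest in E0771 empty vector replicate 2, E0771 WT replicate 2, E0771 Y238A replicate 1 and AT-3 Y238A replicate 1. E0771 Y238A replicate 2 lay apart from the other libraries of its group for several of the 10 genes.

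The promoter sequences shown here belong to Ccna1 and Cdkn1a, which among the members with a promoter entry changed most with WT in AT-3, and to Cdkn1b, a CIP/KIP gene that moved far less. They are the bases before the annotated start, from RefSeq on GRCm38.p6, where 5 of the 10 genes had an entry (Ccna1, Cdkn1b, Ccne1, Cdkn1a and Ccnd3). Bases in GENCODE exons of the gene were cut from the 250-base windows before printing, 54 for Ccna1 and 3 for the upstream Cdkn1a start. The Ccna1 window lies inside the GENCODE span of the gene (55045469 to 55055501, minus strand). Its start is thus a downstream one, and the bases before the outermost start were not searched. Ccnd1, Ccnd2, Ccne2, Ccna2 and Cdkn1c were not in that table. In Ccna1 (chr3:55055056-55055251, minus strand) the capitals mark a CCAAT box, read here as its reverse complement. In the first Cdkn1a window (chr17:29090729-29090975, plus strand) they mark matches to the p53 half-site, in the second (chr17:29093519-29093768, plus strand) GC boxes (GGGCGG), and in Cdkn1b (chr6:134920151-134920400, plus strand) CCAAT and GC boxes.
Ccna1 promoter: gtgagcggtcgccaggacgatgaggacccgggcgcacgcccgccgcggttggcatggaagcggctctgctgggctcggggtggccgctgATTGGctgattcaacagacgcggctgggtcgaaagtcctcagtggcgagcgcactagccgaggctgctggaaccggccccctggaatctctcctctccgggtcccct
Cdkn1a promoter, upstream start: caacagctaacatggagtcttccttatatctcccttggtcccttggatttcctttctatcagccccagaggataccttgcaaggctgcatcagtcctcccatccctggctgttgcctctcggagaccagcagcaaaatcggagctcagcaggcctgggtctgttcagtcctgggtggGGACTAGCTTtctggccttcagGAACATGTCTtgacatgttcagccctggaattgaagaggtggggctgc
Cdkn1a promoter, downstream start: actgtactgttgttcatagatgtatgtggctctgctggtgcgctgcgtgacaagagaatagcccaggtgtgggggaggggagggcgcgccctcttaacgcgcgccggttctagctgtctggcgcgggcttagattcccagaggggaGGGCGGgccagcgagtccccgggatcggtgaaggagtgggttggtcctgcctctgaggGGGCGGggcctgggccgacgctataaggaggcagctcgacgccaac
Cdkn1b promoter: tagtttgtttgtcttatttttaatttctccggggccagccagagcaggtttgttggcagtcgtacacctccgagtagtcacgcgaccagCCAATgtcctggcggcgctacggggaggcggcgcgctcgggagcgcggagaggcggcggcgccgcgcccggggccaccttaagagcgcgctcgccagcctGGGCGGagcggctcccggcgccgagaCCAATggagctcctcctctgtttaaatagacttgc
The windows searched were the 250 bases before each start, on both strands. The CArG box, which SRF binds, was in none of the members' windows and in 1.47% of the 32851 promoters of the table. The p53 half-site was found only in the upstream Cdkn1a window among them, with 2 matches, and in 7.13% of all promoters. GC boxes (32.7% of promoters) were present in the windows of all 5 genes, and CCAAT boxes (33.9%) in those of Ccna1, Cdkn1b and the second Ccnd3 start. The GC box of Ccna1, from base -244, lies outside the printed stretch. No member window held the E2F letters TTTCCCGC (0.895% of promoters), TATAAA (12.4%), the E-box CACGTG (6.02%) or the AP-1 letters TGACTCA (4.46%). A match is a run of letters and not a measured binding site, and an absent match says nothing of more distant elements.

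The 3 D-type cyclins answered WT MRTFA differently in AT-3: Ccnd1 fell below every other library of the line, while Ccnd2 and Ccnd3 did not pass the test. Y238A left Ccnd1 near empty vector and came with more Ccnd2. In E0771 the changes were small.

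Ccnd1, the cyclin D gene most often linked to mitogen signalling in breast cells (chromosome 7, 144929931 to 144939925, minus strand, GRCm38), had 27.0, 36.4 and 42.1 CPM in AT-3 with WT MRTFA and 169, 149 and 153 CPM with Y238A, against 154, 152 and 149.5 CPM with empty vector. All WT libraries lay below all others of that line, and the Y238A and empty vector libraries overlapped. Ccnd1 fell by 2.11 ± 0.10 with WT against empty vector (adjusted p = 3.49e-11), a 4.32-fold lower level. It was also lower with WT than with Y238A, by a log2 difference of -2.16 ± 0.10 (adjusted p = 2.62e-11), while Y238A against empty vector gave 0.05 ± 0.10 (adjusted p = 0.746). In E0771 Ccnd1 had 283, 292 and 279.8 CPM with WT and 360.1, 338 and 344 CPM with Y238A, against 299, 312 and 301 CPM with empty vector. Here the Y238A libraries were the highest and the WT libraries the lowest, without overlap. The differences against empty vector did not pass (WT -0.09 ± 0.10, adjusted p = 0.565, and Y238A 0.19 ± 0.10, adjusted p = 0.251, the second passing at 0.00163 with each line fitted alone). WT was lower than Y238A by -0.29 ± 0.10 (adjusted p = 0.0490), a call lost with 1 of any of the 6 libraries of this contrast left out (adjusted p 0.0804 to 0.143). Of the merged exon bases of Ccnd1, 23.4% are shared with LTO1 on the other strand, which was at 17.4 ± 0.977 CPM in AT-3 with WT and 11.5 ± 1.30 CPM with empty vector. Since the strandedness of the counting is not given, reads of such overlapping genes cannot be told apart.

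Ccnd2 (chromosome 6, 127125162 to 127152193, minus strand), the D-type cyclin known for its part in ovary, pancreatic islets and lymphocytes, had 293, 292 and 294 CPM in AT-3 with WT and 554, 552 and 583 CPM with Y238A, against 314, 302 and 309 CPM with empty vector. The Y238A libraries stood far above the rest, and the WT libraries sat just under those of empty vector. Ccnd2 rose by 0.87 ± 0.05 with Y238A against empty vector (adjusted p = 4.97e-12), and WT was lower than Y238A by -0.94 ± 0.05 (adjusted p = 2.15e-13). WT against empty vector gave -0.07 ± 0.05 (adjusted p = 0.154), passing as -0.23 with library totals in place of TMM (adjusted p = 1.62e-04) and as -0.19 and -0.20 without WT replicate 2 or 3. In E0771 the same gene had 755, 785 and 798 CPM with WT and 903, 977 and 847 CPM with Y238A, against 771.01, 751 and 764 CPM with empty vector. Again all Y238A libraries were the highest. It rose by 0.25 ± 0.04 with Y238A (adjusted p = 7.58e-04), WT was lower than Y238A by -0.22 ± 0.04 (adjusted p = 7.97e-04), and WT against empty vector gave 0.03 ± 0.04 (adjusted p = 0.663).

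Ccnd3 (chromosome 17, 47505051 to 47599691, plus strand), the D-type cyclin best known from lymphocyte and muscle development, had 157, 150.1 and 149.5 CPM in AT-3 with WT and 189.7, 180.2 and 180.3 CPM with Y238A, against 153, 145 and 149 CPM with empty vector. The Y238A libraries were above the others, and WT overlapped empty vector. It rose by 0.30 ± 0.10 with Y238A (adjusted p = 0.0236), a call lost without Y238A replicate 1 (0.0770), empty vector replicate 2 (0.0659) or empty vector replicate 3 (0.0546). WT was lower than Y238A by -0.27 ± 0.10 (adjusted p = 0.0286), lost without Y238A replicate 1 (0.0803) or 3 (0.0513) and with DESeq2 size factors (0.0646), and WT against empty vector gave 0.03 ± 0.10 (adjusted p = 0.786), with the opposite sign (-0.12) under library totals. In E0771 the libraries had 85.4, 88.6 and 92.3 CPM with WT and 108, 75.8 and 116 CPM with Y238A, against 101, 107 and 108 CPM with empty vector. WT lay below empty vector in all libraries, but Y238A replicate 2 was the lowest of the 9, and none of the 3 contrasts passed (WT against empty vector -0.25 ± 0.10, adjusted p = 0.0948). Without Y238A replicate 2, WT was lower than Y238A by -0.33 (adjusted p = 9.86e-06). Bysl shares 4.11% of the exon bases of Ccnd3 from the other strand. It had 57.7, 72.3 and 72.4 CPM in AT-3 with WT and 86.1, 86.1 and 90.5 CPM with empty vector.

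**Figure D1:**
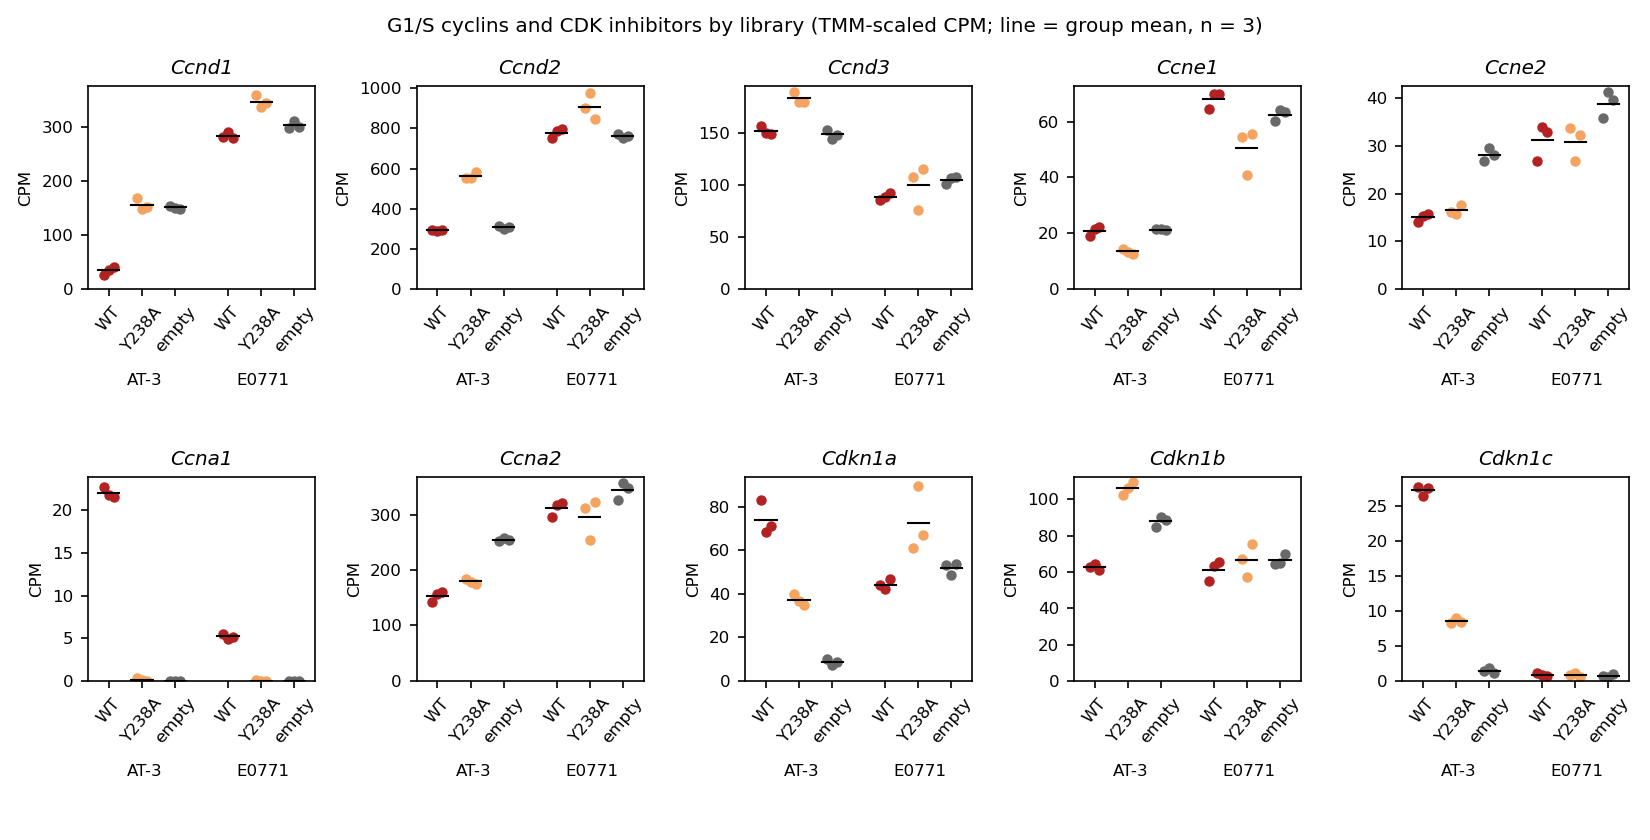
TMM-scaled CPM of the 10 genes in each of the 18 libraries, with WT, Y238A and empty vector side by side for AT-3 and for E0771; each point is a library, the line is the mean of 3, and each panel has its own axis starting at 0. Ccnd1 at 27.0 to 42.1 CPM in AT-3 with WT, Ccna1 with WT in both lines and Cdkn1c in AT-3 with either construct stand apart from the rest of their panels.

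The E-type cyclins, which activate CDK2 at the G1/S boundary, divided by construct: Ccne2 fell with both constructs in AT-3, while Ccne1 fell with Y238A and did not pass with WT. Ccne1 (chromosome 7, 38097984 to 38107534, minus strand) had 18.96, 21.6 and 22.3 CPM in AT-3 with WT and 14.6, 13.4 and 12.8 CPM with Y238A, against 21.5, 21.6 and 21.1 CPM with empty vector. The Y238A libraries were the lowest, and WT spanned the range of empty vector. Ccne1 fell by 0.65 ± 0.09 with Y238A (adjusted p = 6.30e-06), was higher with WT than with Y238A by 0.62 ± 0.09 (adjusted p = 4.91e-06), and gave -0.03 ± 0.09 with WT against empty vector (adjusted p = 0.786). In E0771 it had 64.6, 69.8 and 69.8 CPM with WT and 54.4, 40.97 and 55.7 CPM with Y238A, against 60.04, 64.2 and 63.3 CPM with empty vector. All WT libraries were the highest and all Y238A libraries the lowest, with Y238A replicate 2 far under the other 2. It was higher with WT than with Y238A by 0.43 ± 0.09 (adjusted p = 7.42e-04) and fell by 0.31 ± 0.09 with Y238A against empty vector (adjusted p = 0.0242), the second lost without Y238A replicate 2 (-0.18, adjusted p = 0.0763) or empty vector replicate 2 (0.0797) or 3 (0.0650). That call was also lost with each line fitted alone (0.0589) and without the 4 libraries with most traces of other groups (0.0844). WT against empty vector gave 0.12 ± 0.09 (adjusted p = 0.338).

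Ccne2 (chromosome 4, 11191351 to 11204779, plus strand) had 14.1, 15.3 and 15.8 CPM in AT-3 with WT and 16.2, 15.8 and 17.7 CPM with Y238A, against 26.9, 29.6 and 28.1 CPM with empty vector. Both constructs lay under every empty vector library. It fell by 0.90 ± 0.09 with WT (adjusted p = 4.21e-08) and by 0.77 ± 0.09 with Y238A (adjusted p = 1.11e-06), comparisons that share the empty vector libraries, and WT against Y238A gave -0.14 ± 0.10 (adjusted p = 0.216, passing as -0.31 under library totals). In E0771 Ccne2 had 26.8, 33.9 and 33.0 CPM with WT and 33.7, 26.7 and 32.2 CPM with Y238A, against 35.8, 41.2 and 39.6 CPM with empty vector. Here too no construct library reached an empty vector library. It fell by 0.32 ± 0.09 with WT (adjusted p = 0.0159) and by 0.33 ± 0.09 with Y238A (adjusted p = 0.0235). Both calls were lost with each line fitted alone (0.0690 for WT and 0.0537 for Y238A) and without empty vector replicate 2 (0.0746 and 0.104) or 3 (0.0512 and 0.0702), the WT call also without WT replicate 1 (0.118) and the Y238A call without Y238A replicate 2 (0.0933). Neither passed without the 4 libraries with most traces of other groups (0.0563 and 0.0855). Ints8 shares 17.4% of the exon bases of Ccne2 from the other strand, and it was higher in AT-3 with WT than with empty vector (0.76 ± 0.07, adjusted p = 2.79e-09), opposite to Ccne2.

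The A-type cyclins went apart. Ccna1, near absent without WT MRTFA, was present in all 6 WT libraries of both lines, while Ccna2, the abundant A-type cyclin, fell in AT-3 with each construct. Ccna1 (chromosome 3, 55045469 to 55055501, minus strand) had 2342, 1887 and 1911 counts in AT-3 with WT and 34, 11 and 0 counts with Y238A, against 0, 2 and 2 counts with empty vector. In E0771 it had 614, 480 and 436 counts with WT and 8, 0 and 0 counts with Y238A, against 0, 0 and 0 counts with empty vector. Every WT library was far above every other library of its line. The WT levels were 22.7, 21.8 and 21.5 CPM in AT-3 and 5.51, 4.89 and 5.19 CPM in E0771.

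By summed counts, Ccna1 was 1444-fold higher in AT-3 with WT than with empty vector (95% counting interval 564 to 5301) and 145-fold higher than with Y238A (108 to 199). In E0771 WT was at least 523-fold higher than empty vector, with a floor of 3 counts over the group, and 186-fold higher than Y238A (93.9 to 431). These intervals cover counting error only, and between 61.9% and 64.6% of nonzero counts were even, as if both mates of a pair had been counted, which makes them too narrow. The test across all genes passed for WT against empty vector in AT-3 (adjusted p = 9.19e-09) and in E0771 (8.17e-07), and for WT against Y238A in AT-3 (7.17 ± 0.58, adjusted p = 2.07e-08) and in E0771 (7.47 ± 1.17, adjusted p = 1.16e-06).

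The few Ccna1 counts in Y238A libraries stood beside low levels of other transcripts. In AT-3 Y238A replicates 1, 2 and 3 Ccna1 was at 1.53%, 0.500% and 0% of the AT-3 WT level, beside medians of 1.13%, 0.259% and 0.110% over 13 genes. These had over 10 CPM in every AT-3 WT library and under 0.02 CPM in every AT-3 empty vector library. The Y238A and E0771 libraries were not part of that choice, and in E0771 WT the medians were 2.18%, 2.04% and 2.26%. The log2 difference between WT and Y238A in AT-3 was 8.58 without Y238A replicate 1, and in E0771 it was 11.95 without E0771 Y238A replicate 1, which left 0 counts on the Y238A side. Y238A against empty vector in AT-3 was 9.96-fold by counts (3.63 to 38.1) and did not pass (adjusted p = 0.0529), passing with the stricter filter (0.0377) and without Y238A replicate 3 (0.00180). Expression in the Y238A cells and traces from other libraries cannot be told apart by these values, and the part of each in the Y238A counts was not tested. The antisense entry 4931419H13Rik, which shares 10.1% of the exon bases, was at 0 in all groups.

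Ccna2 (chromosome 3, 36564865 to 36572150, minus strand), needed in S phase and at entry to mitosis, had 142, 157 and 159.9 CPM in AT-3 with WT and 184, 179 and 176 CPM with Y238A, against 253, 257 and 254 CPM with empty vector. The 3 groups did not overlap, with WT the lowest. It fell by 0.74 ± 0.07 with WT (adjusted p = 6.54e-09) and by 0.50 ± 0.07 with Y238A (adjusted p = 3.58e-06), and WT was lower than Y238A by -0.23 ± 0.07 (adjusted p = 0.00492). In E0771 it had 297, 317 and 321 CPM with WT and 313, 254 and 323 CPM with Y238A, against 327, 357 and 349 CPM with empty vector. All construct libraries were below those of empty vector, and Y238A replicate 2 was the lowest. It fell by 0.21 ± 0.07 with Y238A (adjusted p = 0.0431), but did not pass without Y238A replicate 2 (-0.12, adjusted p = 0.159) or empty vector replicate 2 (0.142) or 3 (0.109), nor with each line fitted alone (0.103). Nor did it pass under library totals (0.0768), with the stricter filter (0.0604) or without the 4 libraries with most traces of other groups (0.163). WT against empty vector gave -0.14 ± 0.07 (adjusted p = 0.132). Exosc9 shares 12.5% of the exon bases of Ccna2 from the other strand. It had 32.7, 35.7 and 34.4 CPM in AT-3 with WT and 32.7, 31.3 and 30.4 CPM with empty vector.

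The largest increases among the CIP/KIP inhibitors were in AT-3, where Cdkn1a and Cdkn1c were higher with both constructs and highest with WT, while Cdkn1b moved down with WT and up with Y238A. In E0771 only Cdkn1a passed, with Y238A. Cdkn1a (chromosome 17, 29090976 to 29100727, plus strand), which encodes p21, had 82.8, 68.1 and 71.0 CPM in AT-3 with WT and 39.9, 36.8 and 34.9 CPM with Y238A, against 9.88, 7.37 and 8.84 CPM with empty vector. The 3 groups were separate, in that order. It rose by 3.09 ± 0.13 with WT (8.52-fold, adjusted p = 3.75e-12) and by 2.10 ± 0.13 with Y238A (4.28-fold, adjusted p = 1.78e-09), and WT exceeded Y238A by 0.99 ± 0.12 (adjusted p = 2.10e-06). In E0771 Cdkn1a had 43.8, 42.0 and 46.7 CPM with WT and 61.2, 89.3 and 66.8 CPM with Y238A, against 53.3, 48.7 and 53.4 CPM with empty vector. The order was different there, with Y238A the highest, led by replicate 2, and WT the lowest, and the groups did not overlap. It rose by 0.48 ± 0.12 with Y238A (adjusted p = 0.0165, but 0.0734 when empty vector replicate 2 was left out), WT was lower than Y238A by -0.71 ± 0.12 (adjusted p = 3.09e-04), and WT against empty vector gave -0.23 ± 0.12 (adjusted p = 0.192).

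Cdkn1b (chromosome 6, 134920401 to 134925513, plus strand), which encodes p27, had 62.5, 64.1 and 61.2 CPM in AT-3 with WT and 102, 106 and 109 CPM with Y238A, against 84.5, 90.4 and 88.8 CPM with empty vector. WT lay below and Y238A above every empty vector library. It fell by 0.49 ± 0.08 with WT (adjusted p = 1.02e-05), rose by 0.27 ± 0.08 with Y238A (adjusted p = 0.00642), and WT was lower than Y238A by -0.76 ± 0.08 (adjusted p = 2.66e-08). In E0771 it had 55.0, 63.5 and 65.4 CPM with WT and 67.2, 57.1 and 75.2 CPM with Y238A, against 64.6, 65.0 and 70.1 CPM with empty vector. All 3 groups overlapped and none of the 3 contrasts passed (WT against empty vector -0.12 ± 0.08, adjusted p = 0.287). WT was lower than Y238A by -0.22 without Y238A replicate 2 (adjusted p = 0.0164).

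Cdkn1c (chromosome 7, 143458339 to 143461050, minus strand), which encodes p57 and is imprinted with expression from the maternal copy, had 27.7, 26.4 and 27.6 CPM in AT-3 with WT and 8.33, 9.04 and 8.35 CPM with Y238A, against 1.35, 1.77 and 1.08 CPM with empty vector. The groups were widely separated. Cdkn1c rose by 4.27 ± 0.19 with WT (19.4-fold, adjusted p = 1.31e-13) and by 2.61 ± 0.19 with Y238A (6.09-fold, adjusted p = 8.03e-10), and WT exceeded Y238A by 1.67 ± 0.17 (adjusted p = 2.83e-08). In E0771 it stayed low, at 1.05, 0.815 and 0.702 CPM with WT and 0.882, 1.05 and 0.595 CPM with Y238A, against 0.741, 0.537 and 0.931 CPM with empty vector. These groups overlapped, and WT and Y238A against empty vector gave 0.22 ± 0.23 (adjusted p = 0.529) and 0.20 ± 0.23 (adjusted p = 0.650). The antisense entry Gm44732 shares 30.7% of the exon bases of Cdkn1c and was at no more than 0.0294 CPM in any library.

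**Figure D2:**
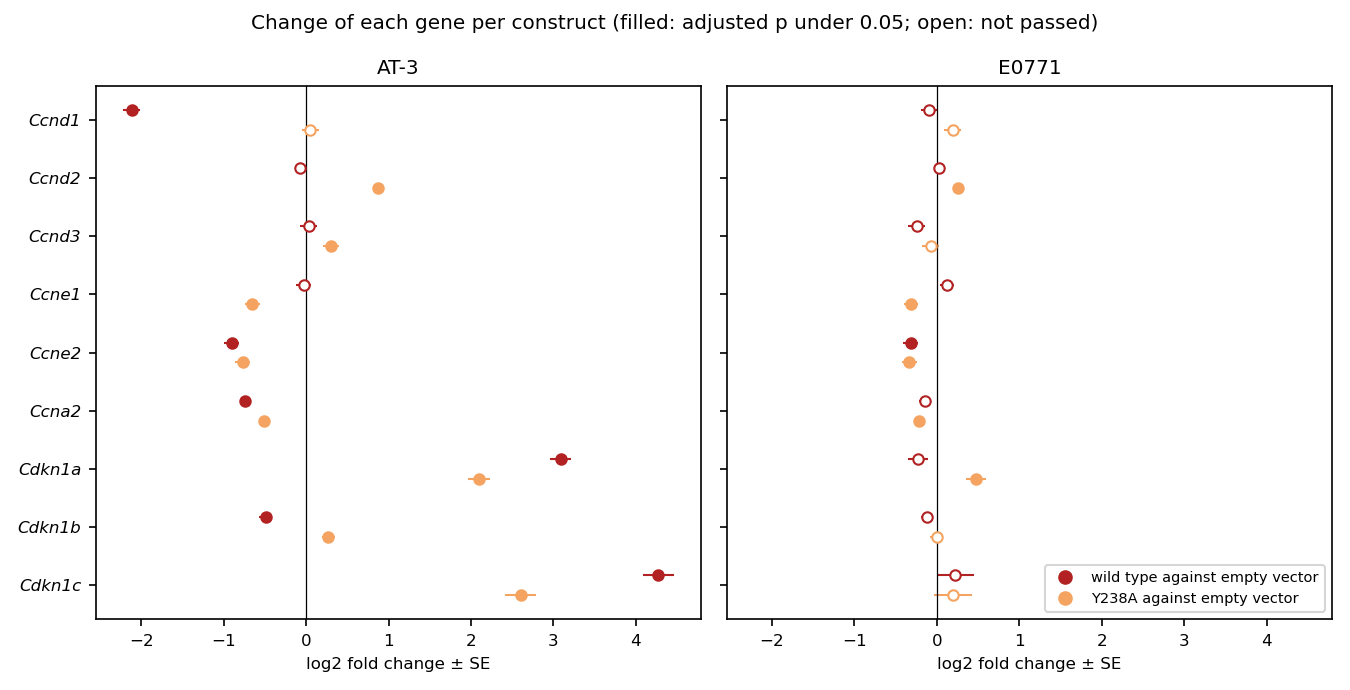
Log2 fold change ± SE (n = 3 libraries per group) of 9 of the 10 genes for WT and for Y238A against empty vector, AT-3 on the left and E0771 on the right; filled points passed an adjusted p of 0.05, and Ccna1 is left out because of its 0 counts. Both contrasts of a line share their empty vector libraries, and the AT-3 values spread over -2.11 to 4.27 against -0.33 to 0.48 in E0771.

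Counted over the 10 genes, the responses were as follows. In AT-3, WT against empty vector had 3 genes higher and 4 lower, where 68.6% of all genes tested passed (36.4% higher and 32.2% lower), and Y238A against empty vector had 5 higher and 3 lower, where 43.7% passed (21.4% higher and 22.2% lower). WT against Y238A had 4 higher and 5 lower, where 66.2% passed (34.8% higher and 31.4% lower). In E0771 WT against empty vector had 1 higher and 1 lower (24.5% of all genes passed, 11.2% higher and 13.3% lower), Y238A against empty vector 2 higher and 3 lower (12.0%, with 5.41% higher and 6.64% lower), and WT against Y238A 2 higher and 3 lower (25.7%, with 12.7% higher and 13.0% lower). The medians over the 10 genes were -0.05, 0.29 and -0.18 for the AT-3 contrasts in this order, beside 0.07, 0.0055 and 0.05 over all genes, and -0.11, 0.10 and -0.05 in E0771, beside -0.05, -0.0060 and -0.02. With 10 genes, shares near these backgrounds are no result about the list. In E0771 Y238A against empty vector, where the share of members stood furthest above the background, the count was 2 without the 4 libraries of highest carry-over, 2 without Y238A replicate 2, 1 without empty vector replicate 2 and 2 without empty vector replicate 3. Library totals in place of TMM moved the median of all genes by -0.14 in AT-3 WT against empty vector, so the smaller AT-3 WT values are to be read relative to that shift.

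Set against gene length, the makeup of each family in AT-3 differed between WT and empty vector. The lengths are merged exons of all annotated transcripts (4709 bases for Ccnd1, 9409 for Ccnd2 and 8775 for Ccnd3), not of those expressed. Orders and shares between genes depend on that choice. Per kilobase of merged exons, the summed D-type level was 56.0 ± 1.24 in AT-3 with WT and 114 ± 2.81 with Y238A, against 81.9 ± 1.47 with empty vector (CPM per kilobase, SD, n = 3), and 153 ± 3.04, 182 ± 4.67 and 158 ± 0.621 for WT, Y238A and empty vector in E0771. Ccnd1 made up 13.3 ± 2.62% of it in AT-3 with WT and 29.2 ± 1.41% with Y238A, against 39.3 ± 0.464% with empty vector. In E0771 its share was 39.4 ± 0.906%, 40.6 ± 1.44% and 41.0 ± 0.740%, close to that of AT-3 with empty vector. Ccnd2 led the D-type cyclins in all groups except AT-3 with empty vector, where Ccnd2 (32.8 ± 0.644 CPM per kilobase) and Ccnd1 (32.2 ± 0.486) differed by less than the SD of Ccnd2. In AT-3 with WT the order was Ccnd2 (31.1 ± 0.140), Ccnd3 (17.4 ± 0.498) and Ccnd1 (7.46 ± 1.62). In the other 5 groups Ccnd3 was the lowest of the 3.

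The summed CIP/KIP level per kilobase was 47.9 ± 2.36 in AT-3 with WT and 38.0 ± 0.150 with Y238A, against 22.4 ± 0.406 with empty vector, and 26.3 ± 1.47, 35.4 ± 2.89 and 29.6 ± 1.32 in E0771. With empty vector Cdkn1b made up 86.0 ± 1.47% of it in AT-3. That share was 61.3 ± 1.88% with Y238A and 28.7 ± 1.67% with WT, where Cdkn1a held 43.4 ± 2.38% and Cdkn1c 27.9 ± 1.01%. In AT-3 with WT, Cdkn1b (13.8 ± 0.320 CPM per kilobase) and Cdkn1c (13.4 ± 0.349) differed by less than the sum of their SDs. In E0771 Cdkn1a and Cdkn1b made up nearly all of the family, with Cdkn1a at 47.3 ± 2.13%, 57.2 ± 7.42% and 49.3 ± 1.24% for WT, Y238A and empty vector. Of the A-type level per kilobase, Ccna1 held 24.3 ± 1.74% in AT-3 with WT and 3.59 ± 0.340% in E0771 with WT. Among the E-type cyclins Ccne1 held 64.6 ± 0.677% in AT-3 with WT and 51.9 ± 2.84% with Y238A, against 49.9 ± 1.20% with empty vector.

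**Figure D3:**
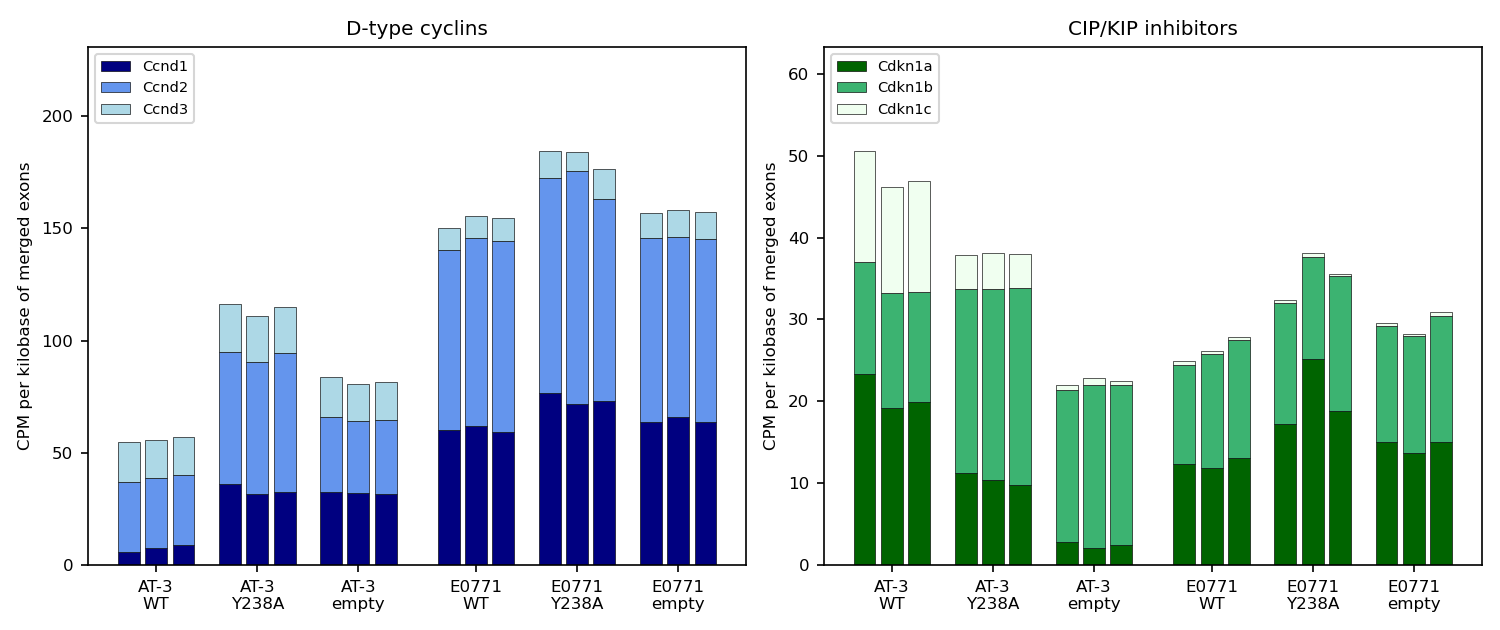
Stacked level of the D-type cyclins (left) and CIP/KIP inhibitors (right) in CPM per kilobase of merged exons, 1 bar per library, with WT, Y238A and empty vector in order for AT-3 and then E0771. In AT-3 the Ccnd1 share of the D-type total is 13.3% with WT and 39.3% with empty vector, and the Cdkn1b share of the CIP/KIP total is 28.7% with WT and 86.0% with empty vector.

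Of the kinases that these cyclins activate, Cdk4 and Cdk2 fell and Cdk6 rose in AT-3 with WT MRTFA. The counts of the lists that follow are to be read against the shares of all genes called: 68.6% (36.4% higher and 32.2% lower) in AT-3 with WT against empty vector, 43.7% (21.4% and 22.2%) in AT-3 with Y238A, 24.5% (11.2% and 13.3%) in E0771 with WT and 12.0% (5.41% and 6.64%) in E0771 with Y238A. Of 7 G1 kinases and activators, a list that also holds Cdk7, Ccnh, Mnat1 and Cdc25a, 1 rose and 5 fell in AT-3 with WT, where 32.2% of all genes fell, and 0 rose and 5 fell with Y238A, where 22.2% fell (medians -0.65 and -0.45). In E0771 0 rose and 3 fell with WT and 0 rose and 1 fell with Y238A, the last lost under library totals (medians -0.12 and -0.15). Cdk4, a partner of the D-type cyclins, fell by 0.99 ± 0.07 in AT-3 with WT (258 ± 36.9 CPM against 511 ± 12.9 CPM with empty vector), whereas Cdk6, the other partner, rose by 1.17 ± 0.06 (183 ± 20.2 against 81.8 ± 2.85 CPM). Cdk2, the partner of the E- and A-type cyclins, fell by 0.81 ± 0.08, and Mnat1, a subunit of the CDK-activating kinase, fell by 0.65 ± 0.06. Cdk6 went the other way with Y238A in AT-3, where it fell by 0.45 ± 0.06 (adjusted p = 6.71e-06), and with WT in E0771, where it fell by 0.40 ± 0.06 (adjusted p = 7.40e-05).

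All 4 INK4 inhibitors, which block CDK4 and CDK6, fell in AT-3 with WT, where 32.2% of all genes fell, against 1 higher and 0 lower with Y238A (43.7% of all genes called) and 0 higher and 1 lower with each construct in E0771. Cdkn2b fell by 2.50 ± 0.33 (6.69 ± 0.248 CPM with WT against 37.9 ± 4.87 CPM with empty vector) and Cdkn2a by 2.10 ± 0.42 (30.1 ± 2.24 against 129 ± 7.56 CPM). The Cdkn2a entry joins the p16 and p19 transcripts, which gene counts cannot separate. Cdkn2c fell by 0.71 ± 0.13 and Cdkn2d by 0.47 ± 0.15. Cdkn2a and Cdkn2b averaged under 1 CPM in every E0771 group. In AT-3 with WT, CDK inhibitor transcripts moved in both directions, with Cdkn1a and Cdkn1c higher and Cdkn1b and the 4 INK4 genes lower.

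Of 13 pocket protein, E2F and DP genes, 4 rose and 8 fell in AT-3 with WT, 1 rose and 7 fell with Y238A, 1 rose and 3 fell in E0771 with WT, and 0 rose and 0 fell with Y238A (medians -0.53, -0.28, -0.07 and -0.11), beside 68.6%, 43.7%, 24.5% and 12.0% of all genes called either way in these 4 contrasts. Rb1, which encodes the retinoblastoma protein, rose by 1.29 ± 0.10 in AT-3 with WT and by 0.55 ± 0.11 in E0771 with WT (adjusted p = 6.52e-04). E2f5 rose by 1.83 ± 0.09 and Tfdp2 by 0.68 ± 0.04 in AT-3 with WT, while Tfdp1, the main dimer partner of E2F factors, fell by 0.96 ± 0.05. Of 11 genes for turnover of G1 cyclins and inhibitors, 5 rose and 3 fell in AT-3 with WT (4 and 5 under library totals), 4 and 4 with Y238A, 1 and 2 in E0771 with WT and 2 and 1 with Y238A (3 and 0 under library totals). The AT-3 WT count is near the 68.6% of all genes called there. Skp2, which directs p27 to degradation, rose by 0.82 ± 0.07 in AT-3 with WT and fell by 0.63 ± 0.07 with Y238A, its cofactor Cks1b rose by 0.47 ± 0.05, Gsk3b, a kinase that marks cyclin D1 for export and breakdown, rose by 0.65 ± 0.05, and Fbxo31 fell by 0.86 ± 0.05.

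**Figure D4:**
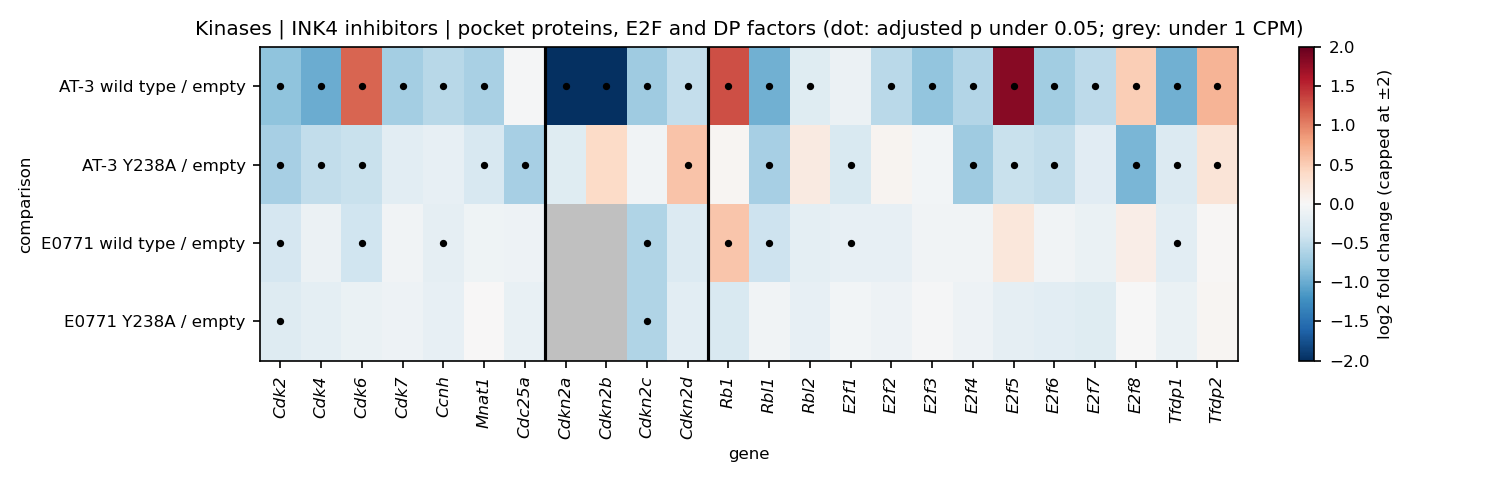
Log2 fold changes (colour, capped at ±2) against empty vector of 7 kinases and activators, 4 INK4 inhibitors and 13 pocket protein, E2F and DP genes, with AT-3 WT, AT-3 Y238A, E0771 WT and E0771 Y238A in rows; a dot marks an adjusted p under 0.05 and grey marks genes under 1 CPM in both groups. Cdk6 (1.17), Rb1 (1.29) and E2f5 (1.83) rose in the AT-3 WT row, in which all 4 INK4 genes fell.

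Among 10 transcription factors known to act on these genes, 3 rose and 4 fell in AT-3 with WT (1 and 5 under library totals), 1 and 3 with Y238A, 3 and 3 in E0771 with WT and 1 and 0 with Y238A. The AT-3 WT count is close to the 68.6% of all genes called there and is no result about the list. In E0771 with WT 24.5% of all genes were called (11.2% higher and 13.3% lower). Trp53, which encodes p53, fell by 1.19 ± 0.07 in AT-3 with WT (100.4 ± 14.3 CPM against 229 ± 6.05 CPM) and by 0.36 ± 0.07 with Y238A (adjusted p = 3.96e-04). Its bearing on Cdkn1a was not tested. Fos rose with WT in both lines, by 2.39 ± 0.19 in AT-3 and 2.19 ± 0.22 in E0771. Smad3 fell by 1.18 ± 0.05 and Klf4 by 0.96 ± 0.09 in AT-3 with WT. Of 10 p53 targets other than Cdkn1a, 4 rose and 4 fell in AT-3 with WT (3 and 5 under library totals), 2 and 3 with Y238A, 3 and 0 in E0771 with WT (2 and 1 under library totals) and 0 and 2 with Y238A (0 and 1). The AT-3 WT count is near the 68.6% of all genes called there. Phlda3 (1.42 ± 0.05) and Zmat3 (1.10 ± 0.07) rose in AT-3 with WT, while the pro-apoptotic Bbc3 (-2.17 ± 0.15) and cyclin G1, Ccng1 (-0.62 ± 0.06), fell.

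Of 9 mitotic and other cyclins, 0 rose and 7 fell in AT-3 with WT, 2 and 4 with Y238A, 0 and 3 in E0771 with WT and 0 and 1 with Y238A, beside 32.2%, 22.2%, 13.3% and 6.64% of all genes lower in these contrasts. The mitotic cyclins Ccnb2 (-1.87 ± 0.09) and Ccnb1 (-0.73 ± 0.07) fell in AT-3 with WT, as did Ccnf (-0.76 ± 0.08) and Ccny (-0.28 ± 0.04). Of 8 genes of the imprinted region around Cdkn1c, 5 rose and 1 fell in AT-3 with WT, 1 and 2 with Y238A, 2 and 0 in E0771 with WT (2 and 1 under library totals) and 0 and 1 with Y238A (Nap1l4, lost under library totals with an adjusted p of 0.0801). The AT-3 WT count is near the 68.6% of all genes called there. Igf2, a growth factor gene of the neighbouring imprinted domain, was at 149 ± 7.06 CPM in AT-3 with WT and 1.87 ± 1.10 CPM with Y238A, against 11.4 ± 0.335 CPM with empty vector. It rose by 3.71 ± 0.27 with WT and fell by 2.60 ± 0.32 with Y238A. Its direction with Y238A was opposite to that of Cdkn1c. Kcnq1 averaged 4.24 CPM with WT and 0.0332 CPM with Y238A and was at 0 with empty vector in AT-3, Nap1l4 rose by 0.30 ± 0.05, and Slc22a18, at under 1 CPM in AT-3, fell by 3.95 ± 0.89.

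Among genes with a mean of at least 1 CPM, those whose pattern over the 18 libraries was nearest to a member were measured by the root mean square difference of log2 CPM, each gene centred on its mean. For Ccna1 these were Acta1 (0.551), skeletal muscle actin, and Lmod1 (0.556), leiomodin. Acta1 averaged 4100.3 CPM with WT, 19.3 CPM with Y238A and 7.18 CPM with empty vector in AT-3, and 749 CPM, 4.46 CPM and 2.08 CPM in E0771. For Cdkn1c they were Fry (0.531) and Hist2h3c1 (0.615), and for Cdkn1a Tmem151a (0.422) and Exd1 (0.434). The libraries share lines and constructs, so these values describe likeness over 6 groups.

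The lines differed before any construct effect. With empty vector, 3 of the 10 genes were higher and 6 lower in AT-3 than in E0771, where 72.0% of all genes passed (36.8% higher and 35.2% lower). Cdkn1a (8.70 ± 1.26 CPM in AT-3 and 51.8 ± 2.68 CPM in E0771) was lower by -2.58 ± 0.13 (adjusted p = 1.87e-11), Ccne1 by -1.55 ± 0.09, Ccnd2 by -1.31 ± 0.05 and Ccnd1 by -1.003 ± 0.10. Ccne2 (-0.46 ± 0.09) and Ccna2 (-0.43 ± 0.07) were also lower, while Cdkn1c (0.93 ± 0.22), Ccnd3 (0.50 ± 0.10) and Cdkn1b (0.40 ± 0.08) were higher in AT-3. Ccna1 was at or under 2 counts in all 6 libraries.

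The effect of WT MRTFA was then compared between lines by an interaction term, the log2 effect in E0771 minus that in AT-3. It passed for 6 of the 10 genes, 4 positive and 2 negative, where 47.3% of all genes passed (23.3% and 24.0%). For the Y238A effect 5 passed, 2 positive and 3 negative, where 25.8% did (12.2% and 13.6%), and 3 passed without the 4 libraries of highest carry-over. Cdkn1a had a WT effect of -0.23 ± 0.12 in E0771 and 3.09 ± 0.13 in AT-3, a difference of -3.32 ± 0.18 (adjusted p = 2.77e-10). The effect of WT on Cdkn1c was 0.22 ± 0.23 in E0771 and 4.27 ± 0.19 in AT-3, and that on Ccnd1 was -0.09 ± 0.10 in E0771 and -2.11 ± 0.10 in AT-3. The construct was also several times less abundant in E0771, so line and amount of construct cannot be told apart in these differences. Ccna1 had counts of at least 436 in every WT library of either line and at most 2 in every empty vector library. Its WT interaction did not pass (adjusted p = 0.662). With 0 counts over E0771 empty vector and 4 over AT-3 empty vector, that test cannot tell whether the WT effect differed. By summed counts, Ccna1 with WT was 4.23-fold higher in AT-3 than in E0771 (95% counting interval 3.997 to 4.47). The part of the lower construct amount in E0771 was not tested.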

How the data were processed

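Messenger RNA of 18 libraries (3 per line and construct) was sequenced. Per the labels' protocols, RNA was purified on RNeasy columns and the NuGen Universal Plus mRNA kit served for library preparation. Per the submitters' processing notes, STAR, featureCounts and GRCm38 were used, and versions, annotation release and strandedness are not given in the sources used here. The authors deposited raw counts per gene, not normalized, and all 32286 entries were read.

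Counts were fitted in R 4.3.3 with edgeR 4.0.16: filterByExpr by group (minimum count 10, minimum total 15), TMM scaling, robust dispersions and the quasi-likelihood F test over all 18 libraries and 6 group means, with 12 residual degrees of freedom and Benjamini-Hochberg adjustment over 17841 genes. Depth was 81265466 to 115260128 counts. Figures were drawn with matplotlib 3.10.9. CPM per kilobase used merged GENCODE M21 exons. The members, lists and tests were chosen with earlier results of these data known. From each list up to 4 genes were named by smallest adjusted p for WT against empty vector.

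Alternatives were DESeq2 1.42.0, its size factors, library totals, no filter, a stricter filter (3 libraries with 1 CPM or more, mean count of at least 50), lines fitted separately, a replicate block (also within E0771 WT and empty vector alone, chosen after seeing the data), each library left out and the 4 libraries of highest carry-over left out.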

Additional observations from a re-analysis of the deposited data

Results flagged for a closer look

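For 11 effects the interaction of construct and line passed, so the response to the same construct differed between lines. Values are the log2 effect in E0771 minus that in AT-3, from edgeR's quasi-likelihood test with Benjamini-Hochberg adjustment, and the part of the lower construct level in E0771 was not tested. For WT MRTFA against empty vector the differences were 2.02 ± 0.14 for Ccnd1 (adjusted p = 1.14e-08), 0.59 ± 0.13 for Ccne2 (9.36e-04), 0.59 ± 0.10 for Ccna2 (3.03e-05) and 0.37 ± 0.11 for Cdkn1b (0.00752, and 0.0551 without the 4 libraries of highest carry-over), all genes that fell in AT-3. They were -3.32 ± 0.18 for Cdkn1a (2.77e-10) and -4.05 ± 0.29 for Cdkn1c (7.93e-10), which rose in AT-3. For Y238A against empty vector they were -0.61 ± 0.06 for Ccnd2 (4.72e-07), -1.62 ± 0.18 for Cdkn1a (4.39e-06) and -2.41 ± 0.30 for Cdkn1c (3.88e-06). Those of 0.44 ± 0.13 for Ccne2 (0.0177) and 0.29 ± 0.10 for Ccna2 (0.0291) were lost without several single libraries and when the 4 of highest carry-over were left out (0.0881 and 0.09997).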

How the results depend on the processing

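Of 1358 recomputed log2 fold changes of the 10 genes, 1252 kept direction and side of the threshold, 54 no longer passed, 27 newly passed and 25 changed sign, 0 of those called in the main test. The number of the 10 genes called moved by over 1.5 times in these cases, and by at most 2 genes under the other settings that left all libraries in or left out those 4. WT against empty vector in E0771 had 1 in place of 2 with each line alone or without the 4 libraries of highest carry-over. Y238A against empty vector in E0771 had 3 and 2 in place of 5 under the same settings, with 0 lower under either. The Y238A interaction had 3 in place of 5 without those 4 libraries. With each library left out, counts ranged over 7 to 8, 7 to 9 and 8 to 10 in AT-3 (WT against empty vector, Y238A against empty vector, WT against Y238A), 1 to 2, 1 to 5 and 4 to 6 in E0771, 6 to 8 and 3 to 7 for the WT and Y238A interactions, and 9 to 9 between lines.

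Signs changed only for values that did not pass in the main test, most of them near 0 (the Ccna1 Y238A interaction was 1.28). Ccnd3 gave -0.12 in AT-3 WT against empty vector with library totals. Cdkn1b in E0771 Y238A against empty vector gave 0.0070 with DESeq2 size factors and with DESeq2, 0.031 with library totals, 0.039 with the stricter filter and 0.014 with each line alone. In E0771 WT against Y238A, library totals gave -0.036 for Ccne2 and -0.021 for Cdkn1c. Without the 4 libraries of highest carry-over, Ccnd1 in AT-3 Y238A against empty vector gave -0.0056, Cdkn1c in E0771 Y238A against empty vector -0.016 and Ccna1 in the Y238A interaction -1.79. With single libraries left out the ranges were -0.077 to 0.051 for Ccnd3 and -0.20 to 0.038 for Ccne1 (AT-3 WT against empty vector), -0.0055 to 0.086 for Ccnd1 (AT-3 Y238A against empty vector), -0.20 to 0.088 for Ccnd3 and -0.10 to 0.10 for Cdkn1b (E0771 Y238A against empty vector), -0.079 to 0.12 for Ccne2, -0.029 to 0.14 for Ccna2 and -0.16 to 0.21 for Cdkn1c (E0771 WT against Y238A) and -3.20 to 2.68 for Ccna1 (Y238A interaction). The cause was not tested.

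The replicate numbers paired the libraries only unevenly over the series: of 45 same-number pairs 7 had correlated deviations over 0.1 (range -0.42 to 0.69), and 11 of 18 libraries were closest to their own number. All 3 pairs of E0771 WT and empty vector did correlate (0.42 to 0.69). E0771 Y238A replicate 3 also correlated with replicate 3 of WT (0.47) and of empty vector (0.46). The values of its replicates 1 and 2 with those groups were negative (-0.42 to -0.07). A replicate block within E0771 WT and empty vector, added after seeing the data, called 4591 genes in place of 4364 there and the same number of the 10 genes (2), with Ccne2 at -0.32 (adjusted p = 0.00648). With replicate number as a block 12216 genes in place of 12240 passed in AT-3 WT against empty vector and 2303 in place of 2149 in E0771 Y238A against empty vector. Under the block Ccnd1 in E0771 WT against Y238A no longer passed (-0.29, adjusted p = 0.0737) and Cdkn1b in the Y238A interaction passed (-0.27, adjusted p = 0.0497). Depth limits Ccna1 outside WT libraries and Cdkn1c in E0771, which rest on few counts.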
